A study of Mus musculus with 2 samples.

Results

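Small nucleolar RNAs (snoRNAs) and small Cajal body RNAs (scaRNAs) were examined in a calf muscle of mice, the gastrocnemius, from which total RNA was sequenced. The members are the genes whose type in the annotation is snoRNA or scaRNA and whose expected count was at least 10 in both libraries. An expected count is the number of reads that a model assigns to a gene after dividing reads that match several genes. Of 1558 genes of these types, 1507 snoRNA and 51 scaRNA, 49 passed, or 3.15%. They are 39 records typed snoRNA and 10 typed scaRNA, out of 55536 named genes in all. The members were chosen by their expected counts, which are given below as a description with no test.

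There is a single group, and its 2 libraries carry the labels biological replicate 1 and biological replicate 2. They come from females aged 10 days of B6CASTF1/J, a cross of C57BL/6J with CAST/EiJ. The labels name no other genotype and no treatment, and give separate biosamples without saying that each was 1 animal. Each library was made from 300 ng of RNA by a stranded protocol after ribosomal RNA was reduced, with ERCC spike-ins. No library of another age, strain or tissue is compared here, so values are given per library or as mean ± SD with n = 2, and no test is made. The spread between the libraries may be technical.

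Most snoRNAs guide chemical changes of ribosomal RNA by base pairing. Box C/D RNAs, which carry a C box (TGATGA in its core) near the start and a D box (CTGA) near the end, guide 2′-O-methylation with fibrillarin. Box H/ACA RNAs, which end in ACA followed by a few bases, guide pseudouridylation with dyskerin. Small Cajal body RNAs have either or both kinds of box and guide the same changes of spliceosomal RNAs in Cajal bodies. A few, among them U3, U8 and U17, take part in the cutting of the ribosomal RNA precursor. In mammals most are cut from introns of other genes, while U3 and U8 have their own promoters. Muscle builds ribosomes rapidly in the first weeks after birth, which is the setting of these libraries.

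The sequences below are those of the members that held the most counts or whose values the near-identity of copies bears on. They are the GENCODE M21 transcripts on mm10, 5′ to 3′, written as DNA. Capitals mark the first TGATGA and the last CTGA within 12 bases of the end, or, in RNAs that have it, the ACA that lies 3 bases from the end. Scarna10 (chr6:125186359-125186683, minus strand) is 325 bases long and Scarna2 (chr3:108554338-108554751, minus strand) 414 bases, so only the stretches with the boxes are shown.
Scarna10, bases 1 to 40: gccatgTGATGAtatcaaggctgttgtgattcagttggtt
Scarna10, bases 286 to 325: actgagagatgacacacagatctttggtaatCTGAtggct
Scarna2, bases 335 to 414: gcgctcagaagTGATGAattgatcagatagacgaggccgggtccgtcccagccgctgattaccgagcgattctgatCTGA
Both members of highest count thus had the 2 boxes of the C/D kind, with TGATGA at base 7 of Scarna10 and at base 346 of Scarna2.

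U3 is shown because its records are the largest case of shared sequence. Rnu3b1 lies at chr11:87443237-87443452 and Rnu3a at chr10:40258467-40258679, both on the plus strand. Snord17 (chr2:144265979-144266216, minus strand), the longest member with a Snord name, is shown for its C box at base 7.
Rnu3b1, 216-base record: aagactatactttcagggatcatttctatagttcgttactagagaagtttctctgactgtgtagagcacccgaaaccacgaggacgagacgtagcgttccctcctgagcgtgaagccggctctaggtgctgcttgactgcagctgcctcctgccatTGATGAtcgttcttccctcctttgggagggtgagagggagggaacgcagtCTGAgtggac
Rnu3a, 213-base record: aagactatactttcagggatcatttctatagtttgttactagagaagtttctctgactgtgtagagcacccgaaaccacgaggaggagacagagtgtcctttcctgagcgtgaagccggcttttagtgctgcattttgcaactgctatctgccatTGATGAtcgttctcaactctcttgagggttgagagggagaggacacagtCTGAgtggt
Snord17: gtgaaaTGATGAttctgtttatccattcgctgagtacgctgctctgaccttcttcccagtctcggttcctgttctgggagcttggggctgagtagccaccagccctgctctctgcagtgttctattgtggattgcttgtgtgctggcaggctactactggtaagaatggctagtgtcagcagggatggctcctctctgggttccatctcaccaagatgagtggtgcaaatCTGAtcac
Aligned over their whole length, Rnu3b1 and Rnu3a were 85.4% identical, and TGATGA began at base 157 of the first and base 156 of the second.

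Snora73a and Snora73b, the U17 RNAs, lie at chr4:132352775-132352979 and chr4:132352322-132352526 on the minus strand, and Gm26448, a gene model without a family name, at chr9:120129351-120129553 on the plus strand.
Snora73b: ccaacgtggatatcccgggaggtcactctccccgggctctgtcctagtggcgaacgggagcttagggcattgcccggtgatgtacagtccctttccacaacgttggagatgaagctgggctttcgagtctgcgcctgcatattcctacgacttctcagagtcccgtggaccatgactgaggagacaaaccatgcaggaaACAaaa
Snora73a: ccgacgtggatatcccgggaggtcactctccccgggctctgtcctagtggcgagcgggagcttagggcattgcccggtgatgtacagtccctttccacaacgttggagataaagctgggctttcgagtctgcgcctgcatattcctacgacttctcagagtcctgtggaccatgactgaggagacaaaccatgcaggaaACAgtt
Gm26448: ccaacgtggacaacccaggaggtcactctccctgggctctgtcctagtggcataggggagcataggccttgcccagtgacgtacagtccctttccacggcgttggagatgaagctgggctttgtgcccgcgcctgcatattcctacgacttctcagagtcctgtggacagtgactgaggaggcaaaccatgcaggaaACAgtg
The Snora73 pair was 96.6% identical over 205 bases. Counted from 1 at the 5′ end of Snora73b, they differ at A3G, A54G, G111A, C164T, A203G, A204T and A205T. Gm26448 was 88.3% identical to Snora73a and 87.8% to Snora73b.

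Gm22988 (chr11:69669635-69669778) and Gm25291 (chr11:51737779-51737922), both on the minus strand, form another close pair. Gm26447 (chr16:23111301-23111429, plus strand) is the shortest of the members with a high TPM and has neither end motif.
Gm22988: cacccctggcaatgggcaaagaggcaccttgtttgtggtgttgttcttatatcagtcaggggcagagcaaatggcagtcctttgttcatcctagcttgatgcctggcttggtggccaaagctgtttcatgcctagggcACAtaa
Gm25291: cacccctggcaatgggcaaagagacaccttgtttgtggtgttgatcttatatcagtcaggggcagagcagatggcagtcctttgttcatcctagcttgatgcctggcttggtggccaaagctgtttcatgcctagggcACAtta
Gm26447: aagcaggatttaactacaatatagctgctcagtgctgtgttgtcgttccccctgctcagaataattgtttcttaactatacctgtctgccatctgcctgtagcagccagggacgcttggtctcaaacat
The first 2 were 97.2% identical over 144 bases and differ, counted from the 5′ end of Gm22988, at G24A, T44A, A70G and A143T. Their counts were far apart, at 371.9 and 270.2 for Gm22988 and 25.3 and 15.0 for Gm25291.

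By motif, 19 of the 49 member records (38.8%) had ACANNN as their last bases, read on the RNA strand. The share was 27.0% among 810 snoRNA and scaRNA genes of the same lengths that did not pass, and 1.59% among 15332 transcripts of other genes of those lengths. CTGA within the last 12 bases was found in 22 members (44.9%), against 8.02% and 6.79%. TGATGA anywhere together with that CTGA was found in 21 members (42.9%), against 1.48% and 1.17%. The member shares are weighted by copies: over the 43 distinct member sequences they were 44.2%, 37.2% and 34.9%. No member had both end motifs, and 8 had neither. A match is a description of letters. Of the 8, Snora74a, Snora44 and Gm23119 were classed by name or type, and 5 typed snoRNA were left unassigned: Gm24119, Gm26447, Gm23262, Gm24336 and Gm24616.

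The members held 18544 of the expected counts over named genes in replicate 1 and 16469 in replicate 2. These were 0.0520% (95% Wilson interval 0.0513 to 0.0527) and 0.0415% (0.0409 to 0.0422), with a mean of 0.0468% ± 0.00739 (SD, n = 2). The intervals cover counting error only. In TPM, which divides counts by effective length and scales each library to a fixed total, the share was 0.562% and 0.421% (mean 0.492% ± 0.0999). The members together made up 98.6% and 97.1% of all counts given to the 1558 genes. Total RNA of the tissue was measured, so fewer cells of a type and less RNA per cell cannot be told apart in these values.

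Counts were concentrated in few members. By single record, the highest held 19.5% ± 1.12 of the members' counts and the leading 5 held 47.3% ± 2.99. The leading 10 held 70.9% ± 2.49 and the leading 20 held 89.2% ± 0.871. The leading 5 records cut through 4 tied Rnu3b copies of 215 bases, among which the model divided the same reads. The 9 U3 member records held 29.8% of member counts in replicate 1 and 30.5% in replicate 2, more than the highest single record. With U3 counted as a single RNA, the leading shares would be higher. Cajal body RNAs, 11 records with Scarna10 included, held 43.1% ± 0.781 of member counts. The 17 box C/D records held 34.3% ± 0.294, the 16 box H/ACA records 18.8% ± 0.627 and the 5 unassigned records 3.92% ± 0.140 (SD, n = 2 throughout). On the TPM scale the order was another: box C/D 38.9% ± 0.154, box H/ACA 27.9% ± 0.781, Cajal body RNAs 24.4% ± 1.11 and unassigned 8.82% ± 0.178. The median length was 265 bases for the Cajal body RNAs, 215 for box C/D and 143.5 for box H/ACA.

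**Figure D1:**
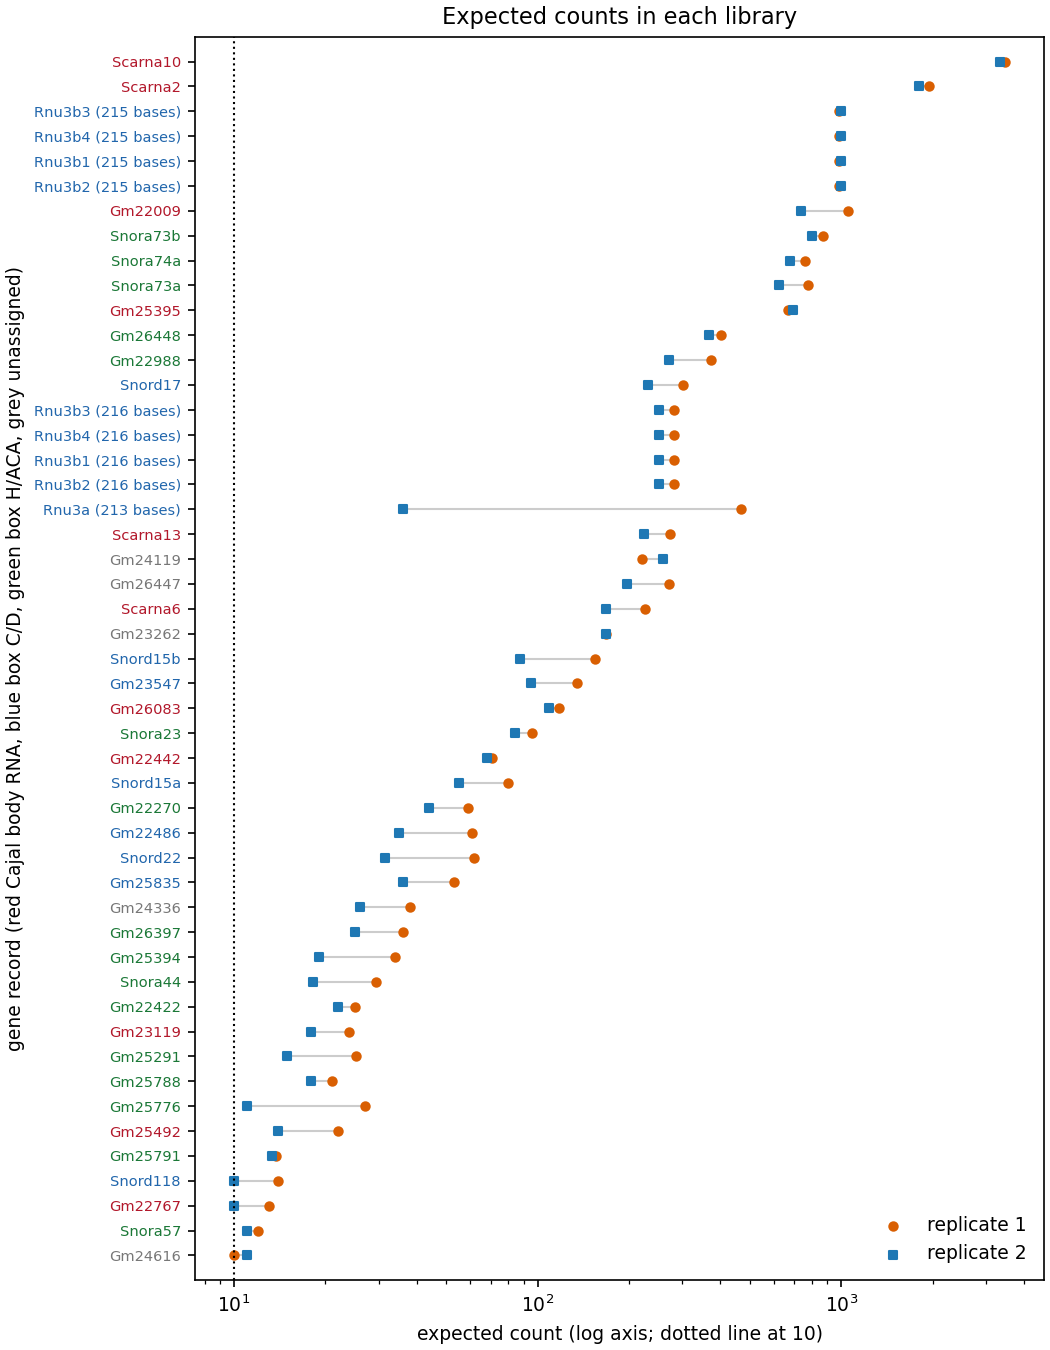
Expected count of each of the 49 gene records in replicate 1 (circles) and replicate 2 (squares) on a log axis, with names coloured by class and the count rule of 10 dotted. Scarna10 leads in both libraries, the 4 Rnu3b records of each length have equal values, and the 213-base Rnu3a record is far apart between the libraries, at 466.0 and 36.04.

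Among the Cajal body RNAs, Scarna10 had expected counts of 3467 in replicate 1 and 3340 in replicate 2 and TPMs of 544.0 and 460.7. It ranked 1st among single records by either measure. It is typed snoRNA in the annotation, although its name is that of a Cajal body RNA, and it overlaps an exon of Ncapd2, a condensin subunit, on the same strand. Scarna2 had 1948 and 1801 counts and TPMs of 219.3 and 178.2. It fell inside no other gene on its strand. Gm22009, in an intron of the nuclear import receptor gene Kpna4, had 1055 and 736 counts. These 3 are the longest members, at 325 to 414 bases, and they held 6470 and 5877 counts together.

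Gm25395 and Scarna6 both lie in introns of the autophagy gene Atg16l1, 7618 bases apart, and were 62.6% identical. Their counts were 667 and 695 for Gm25395 and 226 and 168 for Scarna6, so Gm25395 was the higher in both libraries. Scarna13, in an intron of the noncoding host Snhg10, had 272 and 224 counts. The remaining scaRNA members were lower: Gm26083 had 117.8 and 109.1, Gm22442 71 and 68, Gm23119 24 and 18, Gm25492 22 and 14, and Gm22767 13 and 10.

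The box C/D members were mostly U3. Rnu3b is annotated as 4 loci on chromosome 11, from 87443237 to 87471583, all in introns of Tex14, a gene of germ cell bridges. Each locus has a record of 215 bases and a record of 216 bases that differ by 1 end base, and all 4 loci have the same sequence. The 4 records of 215 bases were each given 985.1 counts in replicate 1 and 996.8 in replicate 2, and the 4 of 216 bases 280.9 and 250.7. The equal values are the model's division of the same reads. The posterior SD of a record's count, which states how uncertain that division is, ran from 240.1 to 821.6. The sum over the 8 Rnu3b records was 5064 and 4990, and only this sum can be read.

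Rnu3a has records of 213 and 214 bases at 1 locus. The 213-base record, a member, had 466.0 counts in replicate 1 and 36.04 in replicate 2. The 214-base record had 0 and 325.0 and so failed the count rule. Summed, the locus had 466 and 361 counts. The 9 U3 records that are members held 5530 and 5026 counts, or 29.8% and 30.5% of member counts. With all 10 records, U3 had 5530 and 5351 counts and was the most counted RNA of the class. Summed TPM of the 10 records was 1690 and 1437.

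The other box C/D members were smaller in count. Snord17, in an intron of Snx5, had 302 and 231 counts. Snord15b and Snord15a, which share the ribosomal protein gene Rps3 as host, had 154.0 and 87.5, and 80 and 55. Gm23547 had 135.1 and 95.2, and Snord22, which overlaps an exon of Snhg1, 61.6 and 31.4. Gm22486 and Gm25835 had 61 and 35, and 53 and 36. Gm23547, Gm22486 and Gm25835 were placed in box C/D by the CTGA near their end, a motif that Cajal body RNAs such as Scarna10 also had. Snord118, the U8 RNA, stood at the edge of the rule with 14 and 10. It lies at 69073427 to 69073561 on chromosome 11, inside no other gene on its strand.

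Box H/ACA members were led by U17. Snora73b had 871.0 and 800.6 counts and Snora73a 775.2 and 624.2, and both lie in an intron of Rcc1 and within a second gene on the same strand. Snora74a had 762.6 and 676.0. Gm26448, in an intron of the ribosomal protein gene Rpsa, had 403 and 366, and Gm22988, which overlaps an exon of the translation factor gene Eif4a1, 371.9 and 270.2. Below these 5 came Snora23 with 96 and 84 counts and Gm22270 with 59 and 44. The other 9, with Snora44 and Snora57 among them, had mean counts from 11.5 to 30.5. Among the unassigned records, Gm26447 had 270.3 and 196.6 counts, Gm24119 221 and 259, Gm23262 168.4 in both libraries, Gm24336 38 and 26, and Gm24616 10 and 11.

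At the edge of the rule, the members just inside were Gm22767, Gm24616 and Snord118, each with 10 in its lower library, and Gm25776 and Snora57, with 11. Just outside were Gm26079 with 12.8 and 8.97, Snora7a with 13.9 and 6.83, Mir1949 with 6.18 and 8.73, Gm22154 with 10 and 6, and Gm23946 with 10.2 and 6.00. The edge thus passes among genes that differ by a few reads.

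Annotated length limited which genes could be counted. Effective length, the number of positions from which a read can start, was the annotated length minus 99 bases for every gene of the class at least 100 bases long, and 0 for the 462 genes of up to 99 bases. No gene shorter than 120 bases had any count, which covers 592 genes, 130 of them with an effective length above 0. For those 130 genes, a count of 0 allows up to 8.41e-06% of counts in replicate 1 and 7.57e-06% in replicate 2 (3 counts each). With so few positions for a read at these lengths, this limits counts and says little of RNA level. The genes of effective length 0 are listed at 0 and nothing can be read from that. By length, 4 of 298 genes of 120 to 129 bases passed, 19 of 603 of 130 to 149, 5 of 26 of 150 to 199, 18 of 34 of 200 to 299 and 3 of 5 of 300 or more. The members ran from 126 to 414 bases with a median of 168, against 128 over the class.

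The names that passed follow this limit. Of 98 genes named Snord, 87 had effective length 0, and all 5 of those with a count were members: Snord17, Snord15a, Snord15b, Snord22 and Snord118. The 17 Snord116 genes, imprinted RNAs of the Snrpn region, are 94 bases long each, and the 4 Snord14 genes are 86 to 90 bases, so none could be measured. Snrpn, the neighbour of the Snord116 genes, had 467 and 551 counts. Snord13, at 104 bases, was at 0, which says little of its RNA level. Of the 42 Snora genes none had effective length 0; 30 had a count and 6 were members. Which members were detected is therefore no census of the class in muscle.

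**Figure D2:**
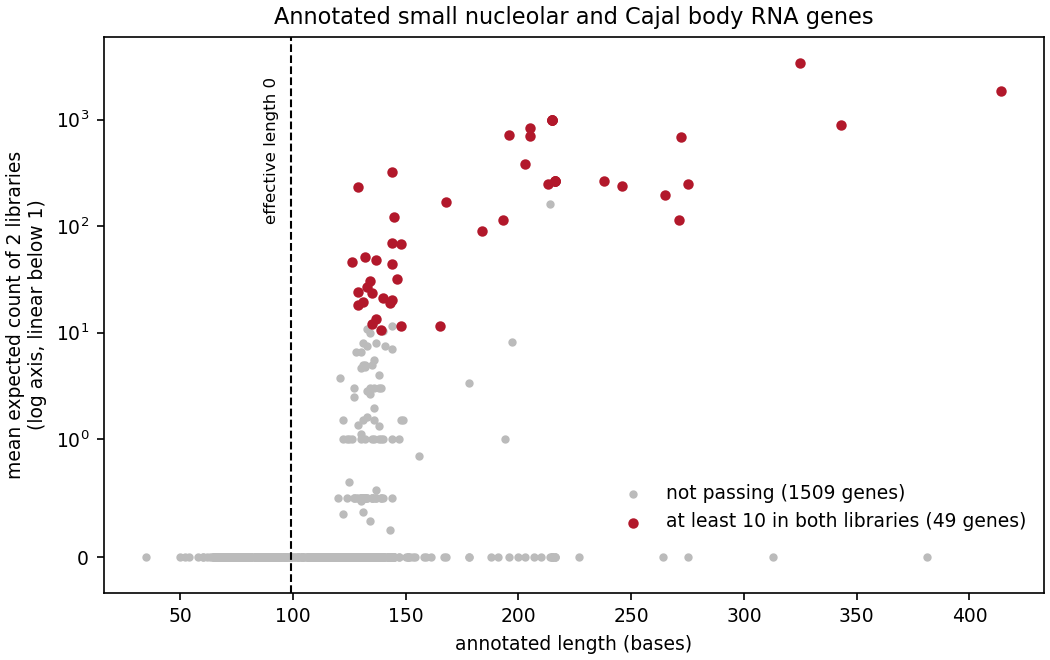
Mean expected count of the 2 libraries (log axis, linear below 1) against annotated length in bases for all 1558 snoRNA and scaRNA genes, with the 49 that passed in red and the other 1509 in grey. No gene left of the dashed line at 99 bases, and none under 120 bases, has a count; the 3 members over 300 bases are among the highest.

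Ranking by TPM in place of counts moved short members up. Of the 20 highest by count, 17 were among the 20 highest by TPM, and 8 of the 10 highest. Spearman's rho between the 2 rankings was 0.94 over the 49 records, which share their counts and include copies. In replicate 1 a single expected count was worth from 0.113 TPM in Scarna2 to 1.31 TPM in Snord22, an 11.7-fold range. Scarna2 went from rank 2 by count to rank 11 by TPM, and Gm22009 from 7 to 13. Gm26447, of 129 bases, went from 22 to 7, with TPMs of 319.5 and 204.4, and Snord15b, of 145 bases, from 25 to 15. Both overlap an exon of their host on the same strand, Eif4a2 for Gm26447 and Rps3 for Snord15b, so reads of the host share positions with them. Gm23547, of 271 bases, fell from 26 to 38. Mean TPM over the records ran from 5.86 in Gm22767 to 502.4 in Scarna10.

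**Figure D3:**
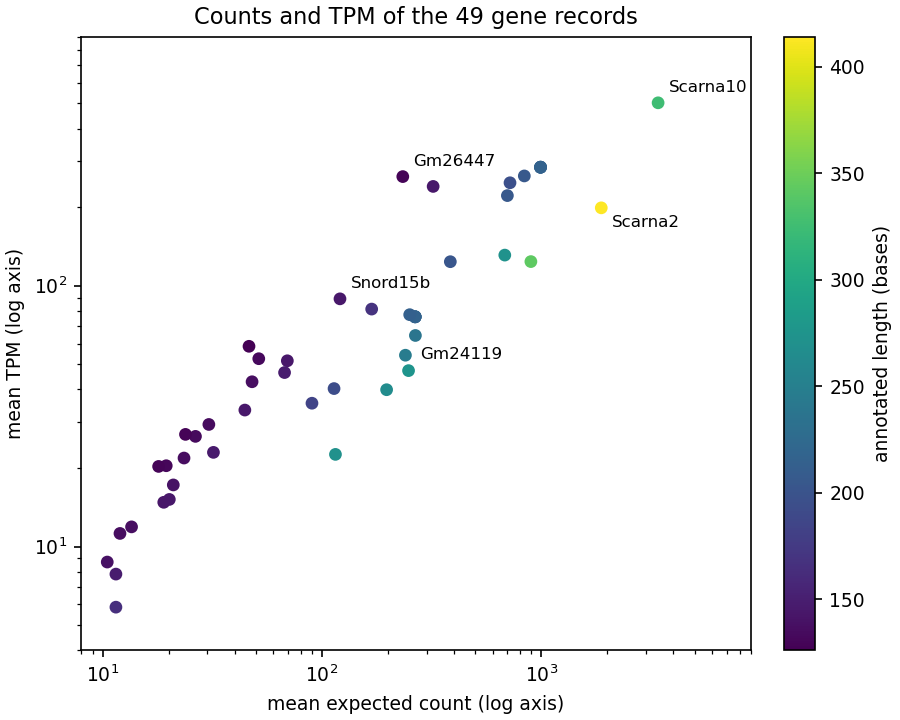
Mean TPM against mean expected count of the 49 records, both on log axes, with colour for annotated length in bases. At a like count the short records (dark) have the higher TPM: Gm26447, of 129 bases, has a mean TPM of 261.9 at a mean count of 233.5, while Gm24119, of 246 bases, has 54.1 at 240.0.

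The tables with a target_id column give estimated counts per transcript for the same libraries, and there the class was nearly absent. Of the 49 members, 47 had an estimated count of 0 in both libraries, and these 47 were also those with at most 0.1 of their expected count. Among all 15954 named genes with expected counts of at least 10 in both, 1.70% had 0 and 2.23% had at most 0.1 of the expected count. The 2 members above 0 were Scarna2, with 526 and 500 estimated counts, and Gm22009, with 0 and 169. Scarna10, the highest by expected count, was at 0 in both libraries. All members together held 0.00149% and 0.00172% of estimated counts, against the 0.0520% and 0.0415% of expected counts above.

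The zeros went with length and were found in other genes too. Estimated counts were 0 in 23 of 23 members of 100 to 149 bases and in 12 of 12 other genes of that length, and in 5 of 5 members and 40 of 40 other genes of 150 to 199 bases. At 200 to 299 bases the numbers were 18 of 18 members and 39 of 44 other genes (88.6%). At 300 to 499 bases they were 1 of 3 members and 85 of 305 other genes (27.9%). Of the other named genes, 2.28% of those of 500 to 999 bases and 0.114% of longer ones were at 0. Among other short RNA classes with at least 10 expected counts in both libraries, 32 of 32 snRNA genes, 5 of 5 miRNA genes, 8 of 13 misc_RNA genes and 1 of 3 ribozyme genes were at 0. Those tables state an effective length of their own, and the median of length minus effective length over transcripts above 2000 bases was 343.2 in replicate 1 and 329.0 in replicate 2. The members' own effective lengths there were all above 0, from 34.9 and 26.8 in Snord22 to 114.1 and 108.0 in Scarna2. Why the tables differ was not tested.

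**Figure D4:**
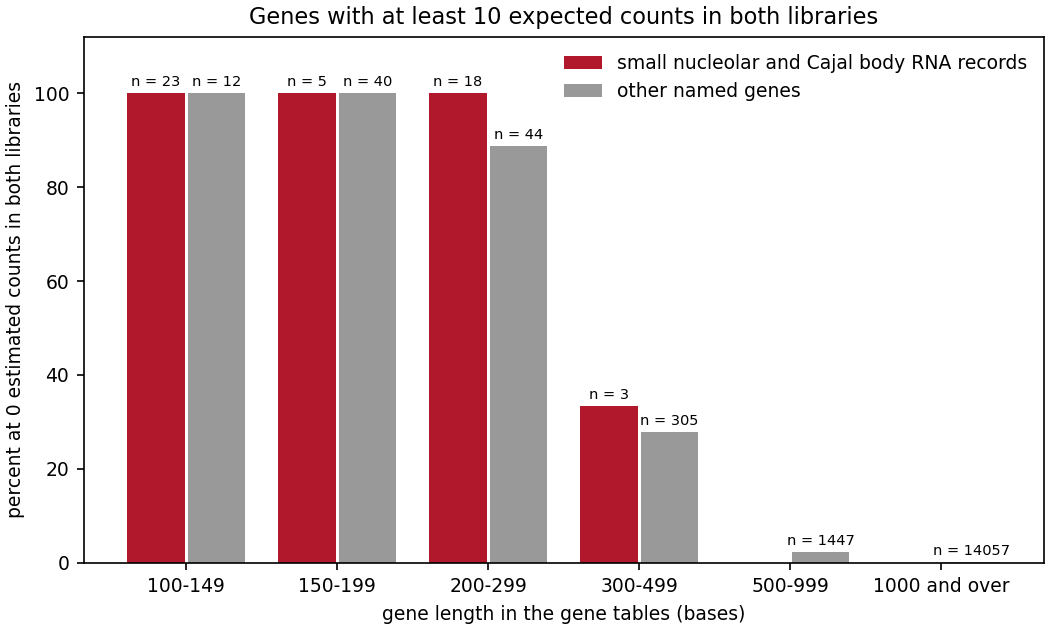
Percent of genes with at least 10 expected counts in both libraries that had 0 estimated counts in both, by gene length in bases, for the 49 member records (red) and other named genes (grey), with the number of genes over each bar. Both kinds are at 100% below 200 bases, and other genes fall to 27.9% at 300 to 499 bases and 2.28% at 500 to 999.

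Of the 49 records, 45 lay inside another gene on the same strand, and 44 inside a coding or long noncoding gene: 39 in protein coding hosts and 5 in long noncoding ones, with 32 hosts in all. Where several genes qualified, the host is the one with the most counts. Of the 44, 31 lay in an intron and 13 overlapped an annotated exon of the host, where reads of the host and of the small RNA share positions. Among these 13 were Gm26447, Snord15b, Gm23262 and Gm23547. Of the 31 in an intron, Snora73a, Scarna13 and the Rnu3b records also overlapped an exon of another gene on their strand. For Rnu3b this was the other record of the same locus. The 5 without a host were Scarna2, the 213-base Rnu3a record, Gm23119, Snord118 and Snora57. Among the hosts were the ribosomal protein genes Rpsa, Rps3 and Rpl5, the initiation factor genes Eif4a1, Eif4a2 and Eif4g2, and the noncoding hosts Snhg1, Snhg10, Snhg12 and Snhg20.

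Members and hosts showed no common order of level. Mean host TPM, without Tex14, ran from 1.31 for Snhg10 to 376.3 for Slc25a3, the mitochondrial phosphate carrier. Scarna13, inside Snhg10, had TPMs of 54.8 and 39.7, and Gm24119, inside Slc25a3, 53.3 and 54.9. Over 36 hosted members without U3, Spearman's rho between member and host TPM was 0.06, as a description; hosts and members of a library share its scaling, and some hosts count more than once. Of these 36, TPM was above the host's in both libraries for 19 and below it in both for 12. Members of 1 host also differed: in Eif4a2, Gm26447 had 270.3 and 196.6 counts and Gm24616, 316 bases away, 10 and 11. In Eif4a1, Gm22988 had 371.9 and 270.2 and Gm25835 53 and 36. Tex14, which surrounds the 4 Rnu3b loci, had TPMs of 0.20 and 0.33.

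Between the libraries most members were lower in replicate 2. Ratios were taken as log2 differences of TMM-scaled counts, for genes whose mean count reached 20. This left 41 members, of which 33 had a ratio below 0, against 48.2% of all 15198 genes. The members' median log2 ratio of replicate 2 over replicate 1 was -0.22, against 0.01 over all genes. It was -0.10 over the 31 members whose mean count reached 50 and over the 27 that reached 100, and also -0.10 over the 25 members of 150 bases or more. Each of these medians fell on the value that the 4 Rnu3b records of 216 bases have in common, so they are not separate results. With overlapping records of a locus summed, the median was -0.31 over 37 loci. The scaling set the size of this: 32 members were below 0 with DESeq2 size factors, 40 with library totals and 41 with spike-in totals, where the medians of all genes were 0.03, -0.20 and -0.35. These scalings moved every ratio together, by 0.02, -0.21 and -0.36 in that order, so the signs below are those after TMM scaling and are best read against the median of all genes. Members that share reads, above all the 8 Rnu3b records, are not separate measurements in these counts.

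By length, the median ratio was lowest among the short members. All 16 members under 150 bases in this set were lower in replicate 2 (15 with DESeq2 size factors, where Gm22442 was at 0.02), with a median of -0.48, while the 18 members of 200 to 299 bases had a median of -0.10 and 12 lower. Medians were -0.08 for the 4 of 150 to 199 bases and -0.05 for the 3 of 300 or more. Summed, all 23 members under 150 bases had 1513 counts in replicate 1 and 1055 in replicate 2, or 42.4 (95% Poisson interval 40.3 to 44.6) and 26.6 (25.0 to 28.3) per 1000000 named counts. After TMM scaling that is a log2 ratio of -0.46. These intervals cover counting error only and were taken before that scaling. They were also apart between the libraries in the other sets. For members of 150 to under 300 bases without U3 they were 137.2 to 145.0 and 110.5 to 117.1, with a log2 ratio of -0.10 after TMM scaling. For U3 they were 151.0 to 159.2 and 131.4 to 138.6, and for 300 bases or more 177.0 to 185.9 and 144.4 to 152.1. The 10 U3 records, at 155.0 and 135.0 per 1000000, had a log2 ratio of 0.01 after TMM scaling (0.03 with DESeq2 size factors, -0.20 with library totals and -0.35 with spike-in totals), and the 3 members of 300 bases or more -0.08. Only 8 other named genes of 100 to 149 bases had a mean count of at least 20, and their median was -0.13 with 5 lower, so genes outside the class give little to compare at that length. At 150 to 199 bases the median over 37 other named genes was -0.06, near the members' -0.08. It was 0.06 over 39 other genes of 200 to 299 bases and 0.16 over 278 of 300 to 499.

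**Figure D5:**
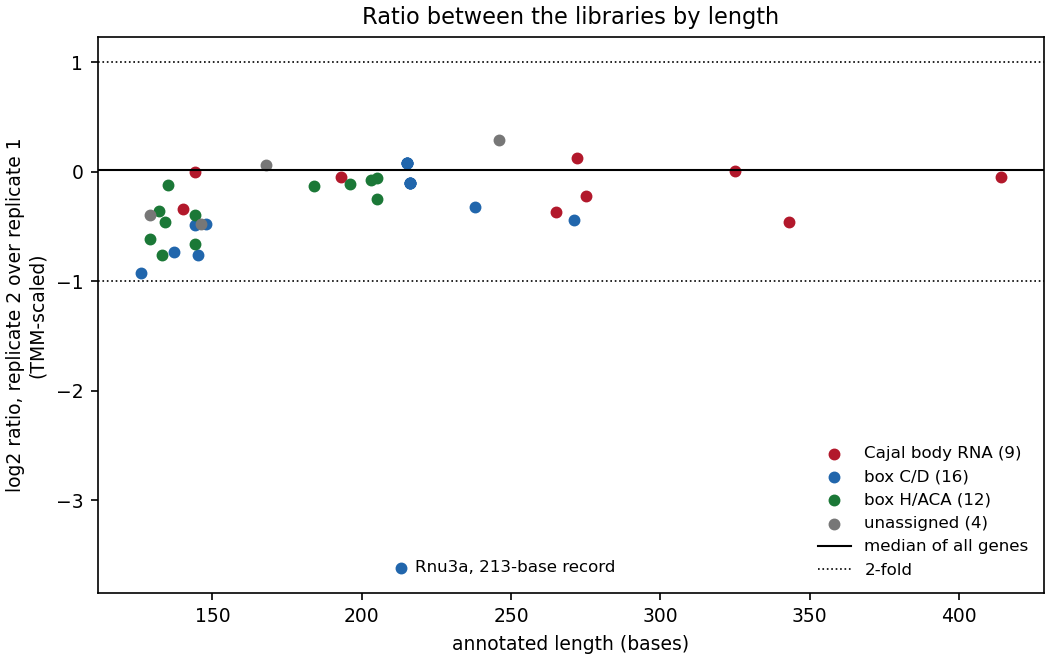
Log2 ratio of replicate 2 over replicate 1 after TMM scaling against annotated length in bases for the 41 records with a mean count of at least 20, coloured by class, with the median of all genes (solid) and 2-fold limits (dotted). All 16 records under 150 bases lie below 0 (15 with DESeq2 size factors), and the 213-base Rnu3a record at -3.62 is the only one past 2-fold.

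By class, 12 of 12 box H/ACA members and 12 of 16 box C/D were lower in replicate 2. So were 7 of 9 Cajal body and 2 of 4 unassigned members. The medians were -0.31, -0.21, -0.05 and -0.17 in that order. With spike-in totals all 41 were lower. The box C/D set includes 9 U3 records that share reads, and the 10 U3 records summed were at 0.01. The other box C/D members of the set, from Snord17 (-0.33) to Snord22 (-0.93), were all lower. The box C/D median thus rests on the copies, and the order of the class medians is not read. Among members with a mean count of at least 50, Snord15b (-0.76), Snord15a (-0.48), Gm22009 (-0.46), Gm23547 (-0.44), Gm22988 (-0.40) and Gm26447 (-0.39) had low ratios, and Gm24119 (0.29, but -0.07 with spike-in totals) and Gm25395 (0.12, but -0.09 with library totals and -0.24 with spike-in totals) the highest. Of the 41 members, 1 was at least 2-fold apart, the 213-base Rnu3a record at -3.62, where 4.78% of all genes were: 4.29% lower and 0.487% higher in replicate 2. With its 214-base record added, the Rnu3a ratio was -0.31, and no locus was then 2-fold apart.

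The hosts' own ratios were mostly higher. Over 29 member and host pairs with mean counts of at least 20 on both sides, the member's ratio was below the host's in 22, with a median difference of -0.37. The 25 hosts had a median ratio of 0.20 after TMM scaling, and 11 were lower in replicate 2. Bone, granulocyte and other markers moved between the libraries as well. The 4 bone markers had a summed TPM of 273.6 in replicate 1 and 1.44 in replicate 2, with Ibsp at 1900 and 0 counts, and the 3 granulocyte markers 45.3 and 0.38. The 2 markers of cycling cells had 35.8 and 26.3, and the 3 fibroblast markers 5414 and 3393. The fibroblast markers did not move together: after TMM scaling Col1a1 had a log2 ratio of -0.66, Col3a1 -0.11 and Dcn 0.10. The 5 muscle markers (Acta1, Ckm, Mylpf, Myh4 and Tnnt3), high in both libraries as the tissue label asks, had 67971 and 79978. Their part in the members' ratios was not tested, and the marker levels, the effective lengths of the target_id tables and the replicate cannot be told apart with 1 library of each.

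Genes for proteins that these RNAs work with were measured as RNA, from a chosen list. Each of the 29 genes listed for small nucleolar ribonucleoproteins had a TPM of at least 1 in both libraries, where 52.3% of 22028 protein coding genes did. In the box C/D core, the methyltransferase Fbl had a TPM of 19.3 ± 3.44, Nop56 23.4 ± 1.04, Nop58 25.2 ± 1.81 and Snu13 24.5 ± 3.37 (SD, n = 2). In the box H/ACA core, the pseudouridine synthase Dkc1 had 13.5 ± 0.382, Nhp2 17.4 ± 1.23, Nop10 27.4 ± 0.940 and Gar1 14.6 ± 0.948.

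The 9 assembly factors ran from a mean TPM of 1.26 to 20.2. Pih1d1 was the highest at 20.2 ± 1.65. The AAA+ ATPases Ruvbl1 and Ruvbl2 had TPMs of 13.1 ± 0.0424 and 15.2 ± 1.70, while Nufip1 had 2.12 ± 0.00707, Naf1 2.19 ± 0.0354 and Shq1, the chaperone of dyskerin, 1.26 ± 0.276. Of the Cajal body and maturation genes, coilin (Coil) had 2.68 ± 0.198, Wrap53, which brings scaRNAs to Cajal bodies, 1.96 ± 0.0919, and the nuclear exosome nuclease Exosc10 13.2 ± 1.77. The U3-specific protein Rrp9 had 8.73 ± 0.163 and Imp3 19.5 ± 0.643. After TMM scaling the median log2 ratio of the 29 genes was 0.21 and 6 were lower in replicate 2, beside a median of -0.22 over the 41 members.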

How the data were processed

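Total RNA-seq of 2 libraries (1 group) was used. The deposited gene tables hold RSEM-format expected counts, TPM, FPKM and posterior mean counts, and the deposited target_id tables kallisto-format estimated counts and TPM; no source used here gives the tools or versions. The posterior SD of a count is a score from the model in the deposited gene tables, in counts. The build was mm10 with GENCODE M21, per text files deposited beside the tables. The tables hold 35925081 and 39969380 expected counts, spike-ins 0.720% and 0.798% of them. The 26248 rows naming no gene (1.38e-05% and 5.00e-06%) were left out. Each class gene has 1 transcript, whose sequence came from the GENCODE M21 transcripts. The members, lists and named genes were chosen with earlier results of these data known. Expected counts were rounded for ratios (edgeR 4.0.16, TMM, prior count 0.5, mean count at least 20), a step tested on simulated data; DESeq2 1.42.0 size factors, library totals and spike-ins were alternatives. Named genes are the 20 highest by count and by TPM, all scaRNA members, listed families, the largest ratios, the edge of the rule, hosts, and list and marker genes; other members were named after their values were seen. Class labels follow names, types and end motifs. Alternatives covered minimum counts, denominators, tables, scalings and each replicate left out.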

Additional observations from a re-analysis of the deposited data

How the results depend on the processing

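Of 65 recalculations, 60 of them planned and 5 added after the data were seen, 50 stayed within the spread or within 1.5 times the value given. For shares the spread was the SD of the 2 libraries, so leaving out either library had to stay within it. For the median log2 ratio the spread was the SD over members without the 213-base Rnu3a record, 0.29. That is wider than the median of -0.22 is from 0 and does not measure how uncertain the median is. The value of -0.43 with library totals therefore counted as within it. The number of members was 29 at a minimum of 50 and 1 by estimated counts, and 50 to 57 with 1 library left out; 45 loci remained with overlapping records summed. By estimated counts the members' share was 0.00160% of counts and 0.0231% of TPM, and the box C/D share 0%; by TPM that share was 38.9%. Leaving out a library gave 0.0415% to 0.0520% of counts, 0.421% to 0.562% of TPM, 34.0% to 34.5% for box C/D, 17 members among the 20 highest by both measures, 47 to 48 members with estimated counts of at most 0.1 of the expected ones, and 29 protein genes. The overlap of rankings was 8 of 10 and, trivially, 49 of 49 in lists of 50. With counts of at least 50, 27 of 29 members were at that limit, and with lengths of 200 bases or more 19 of 21. Members 2-fold apart numbered 2 with library totals, 6 with spike-ins and 0 with loci summed. The median log2 ratio was -0.58 with spike-ins, -0.43 with library totals, and -0.31 over 37 loci with overlapping records summed. At mean counts of at least 50 or 100 or at 150 bases or more, the median log2 ratio was -0.10, a value that Rnu3b copies have in common. By estimated counts the median log2 ratio was 4.25 over 2 members, 1 of them at 0 in replicate 1, so that value rests on the prior count. A ratio between libraries cannot be taken with either left out. No paired analysis was possible because there is only 1 group. Depth limits members near 10 counts, and copies of U3 limit single records. Genes of up to 99 bases could not be measured, and a count of 0 just above that length says little of RNA level.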

Other observations

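Of the genes typed snoRNA or scaRNA, 9 had an expected count of at least 10 in 1 library only. Apart from the 214-base Rnu3a record (0 and 325.0), all of them had the higher count in replicate 1: Gm24727 had 17 and 6, Gm23442 15 and 5, Snora21 12 and 4, Gm25989 10 and 5, Gm22154 10 and 6, Snora7a 13.9 and 6.83, Gm26079 12.8 and 8.97, and Gm23946 10.2 and 6.00. Of these 8, 7 are 131 to 144 bases long and Gm23946 is 197 bases. They passed in replicate 1 and so had to be lower in the other library to be in this set, and nothing is read from their direction.

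Among the members, 26 had a posterior SD of 0 in both libraries, so none of their counts were divided with another gene. Of the other 23, 21 overlap an exon of another gene on the same strand, U3 records included, against 3 of the 26. Without U3, 14 members had a posterior SD above 0, of at most 8.06% of the count in either library.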
